A study of Mus musculus with 12 samples.

Results

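Peroxisomal enzymes and peroxins, the assembly factors of the peroxisome, were followed across mouse liver libraries that differed in hepatocyte PPARα and in diet. The members are the rows of the count table whose mapped symbol is on a list of peroxisomal oxidation enzymes, transporters and biogenesis factors. All 43 listed symbols were found among 55357 genes in the table, and all 43 were among the 17358 genes that passed the filter on low counts. They comprised 23 enzymes, 6 membrane proteins, 13 peroxins and Pmp22. The last encodes a peripheral myelin protein and not a peroxisomal protein, so it was kept apart from the 3 classes.

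RNA of whole liver was sequenced from male C57BL/6J mice in 4 groups, and all of them carried the floxed allele PPARafl/fl. WT mice were PPARafl/fl AlbuminCre+/+ and KO mice were PPARafl/fl AlbuminCreTg/+, in which Cre driven by the Albumin promoter deletes PPARα in hepatocytes. The paper describes this KO as hepatocyte-specific, and deletion in other liver cells was not tested here. Mice received chow or CDAHFD, a high-fat diet that lacks choline and supplies protein as defined L-amino acids, for 6 weeks from 7 weeks of age. There were 4 libraries of WT chow, 3 of WT CDAHFD, 2 of KO chow and 3 of KO CDAHFD.

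Peroxisomes shorten very long-chain, branched and dicarboxylic fatty acids by beta-oxidation and remove the carboxyl carbon of phytanic acid by alpha-oxidation. They also start ether lipid synthesis and break down the hydrogen peroxide that their oxidases release. PPARα is a nuclear receptor that binds DNA with RXR at direct repeats of the core motif AGGTCA, and in rodent liver its ligands are known to raise peroxisomal beta-oxidation enzymes and to multiply peroxisomes. Peroxins insert the membrane proteins, import the matrix enzymes from the cytosol and divide the organelle, and most peroxisomal enzymes cannot be placed correctly without them.

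Library totals lay between 29906785 and 43551003 counts. Hao2 had 4 to 45 counts in a library, and every other member had 64 or more. Levels are given as CPM, which are counts scaled to a common library size after TMM normalization, in the order of the replicate numbers. Ppara itself was at 120.1, 96.2, 238 and 226 CPM in WT chow, 59.5, 75.5 and 73.5 in WT CDAHFD, 14.4 and 38.7 in KO chow and 36.3, 20.7 and 51.9 in KO CDAHFD. It was lower in KO chow than in WT chow by -2.68 ± 0.50 (adjusted p = 0.00111) on the log2 scale and also lower in WT CDAHFD by -1.29 ± 0.40 (adjusted p = 0.0163), while KO CDAHFD against WT CDAHFD gave -0.94 ± 0.42 (adjusted p = 0.547). The summed CPM of 8 hepatocyte markers was 85790 to 101600 in WT chow, 45640 to 54900 in WT CDAHFD, 73150 to 83650 in KO chow and 43030 to 57680 in KO CDAHFD. The lowest value of any of these markers in any library was 235.8 CPM, for Serpina1c. In whole liver, fewer hepatocytes and less RNA of a gene in each hepatocyte cannot be told apart, and the part of cell composition in the results was not tested. Macrophage, stellate cell and cholangiocyte marker sums were higher in every library of the other 3 groups than in every WT chow library. The summed CPM of 9 evening clock genes was 110 and 199 in WT chow replicates 1 and 2 but 880.0 and 839.9 in replicates 3 and 4. In WT CDAHFD it was 201, 137 and 140, and in KO chow 89.3 and 411.8. KO CDAHFD replicate 3 stood at 686 against 173 and 164 in its group. The 43 members together took 1.72 to 1.82% of all counts in WT chow, 1.33 to 1.35% in WT CDAHFD, 1.28 to 1.34% in KO chow and 1.11 to 1.13% in KO CDAHFD.

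The first comparison asked what loss of hepatocyte PPARα did on a normal diet. In KO chow livers, 28 of the 43 members were lower and 5 were higher than in WT chow, against 17% of all tested genes lower and 22% higher. Decr2, an auxiliary enzyme of beta-oxidation, had the largest decrease, to a level 3.93-fold lower. By class, 14 of 23 enzymes were lower and 3 higher, 5 of 6 membrane proteins lower and 1 higher, and 9 of 13 peroxins lower with none higher by the edgeR quasi-likelihood test. All 13 peroxins had a negative fold change, and 9 of them had an unadjusted p under 0.05. Of the 17358 genes tested, 8654 had a negative fold change and 8255 an unadjusted p under 0.05. The median log2 fold change was -0.87 for enzymes, -0.89 for membrane proteins and -0.56 for peroxins, beside 0.00 for all genes. Enzymes spread from -1.98 to 1.94, whereas peroxins kept within -0.996 and -0.05. The upper end of the enzymes was Hao2, with 4 to 45 counts in a library, and Far1 followed at 1.37. When libraries were scaled by their totals alone, the median of all genes moved to 0.40 and only 18 members were called lower. Over all 17358 genes 8186 were then called, 86% of them higher. Scaled to 8 hepatocyte markers, which was tried after the data were seen, 11 members were called lower and 10 higher. Under that scaling 8416 of all genes were called, 90.6% of them higher, and the median of all genes moved to 0.523. With library totals the class medians lay at -0.87, -0.89 and -0.56 relative to that of all genes. A change of scaling shifts all genes nearly alike, so these relative values could hardly move and are no check on the decreases.

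The second comparison asked what CDAHFD did in WT livers, and it used the same WT chow libraries as the first. Here 29 members were lower and 4 higher, against 25% and 26.1% of all tested genes. Enzymes were lower in 15 and higher in 2 of 23 cases, and membrane proteins lower in 4 and higher in 1 of 6. Peroxins were lower in 10 of 13 cases with none higher, and 12 had an unadjusted p under 0.05, as did 9829 of the 17358 genes tested. The class medians were -0.52 for enzymes, -0.84 for membrane proteins and -0.67 for peroxins under TMM scaling, but 0.03, -0.29 and -0.11 when libraries were scaled by their totals alone, where the median of all genes moved to 0.51. Relative to the median of all genes they were -0.48, -0.80 and -0.62 under both scalings, an equality that follows from the scaling itself and is no check. Scaled to the 8 hepatocyte markers, the direction turned for 24 of the 43 members, with 4 called lower and 26 higher. The median of all genes then moved to 1.09, and 14063 of all 17358 genes were called, 97.2% of them higher. The 8 hepatocyte markers were themselves all lower in WT CDAHFD, with a median of -0.93, and 6 of 8 were lower in KO chow, with a median of -0.69. Decreases of members in the following text are therefore decreases relative to all genes.

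**Figure D1:**
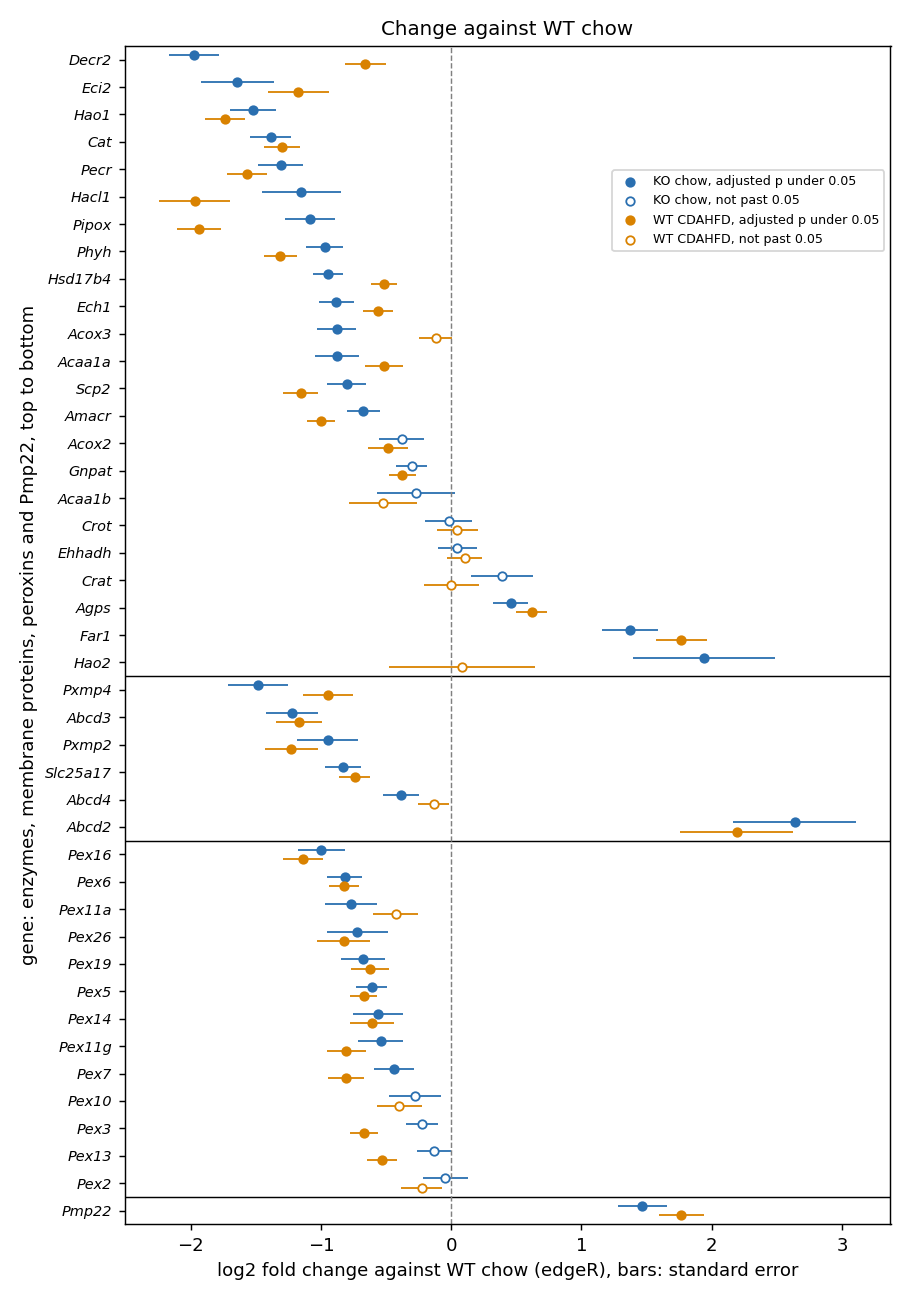
Log2 fold change of each member against WT chow on the horizontal axis, in KO chow (blue) and WT CDAHFD (orange), with bars for the standard error and filled points for an adjusted p under 0.05. Most enzymes, membrane proteins and all 13 peroxins lie left of 0 under TMM scaling, whereas scaling by library totals alone turns 9 members in KO chow, 1 of them called, and 11 in WT CDAHFD, 5 of them called, to the other side.

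Among the beta-oxidation enzymes, Decr2, a dienoyl-CoA reductase that prepares unsaturated fatty acids for the cycle, was at 190.2, 232, 327 and 262 CPM in WT chow, 171, 149 and 159.9 in WT CDAHFD, 60.0 and 68.5 in KO chow and 48.7, 55.4 and 56.2 in KO CDAHFD. Hsd17b4, the D-bifunctional protein that carries out the middle steps for branched and very long chains, was at 511, 516, 618 and 575 CPM in WT chow, 397, 369 and 402 in WT CDAHFD, 297 and 280.3 in KO chow and 204, 202 and 189.5 in KO CDAHFD. Ech1, a dienoyl-CoA isomerase shared with mitochondria, was at 295, 358, 372 and 301 CPM in WT chow, 237, 202 and 233 in WT CDAHFD, 192 and 169 in KO chow and 134, 147 and 143 in KO CDAHFD. In these 3 genes the groups fell in the order WT chow, WT CDAHFD, KO chow and KO CDAHFD with no overlap between any of them. In KO chow they changed by -1.98 ± 0.19 (adjusted p = 6.61e-06), -0.94 ± 0.12 (adjusted p = 4.60e-05) and -0.88 ± 0.13 (adjusted p = 2.27e-04). In WT CDAHFD the decreases were -0.66 ± 0.16 (adjusted p = 0.0035), -0.51 ± 0.10 (adjusted p = 9.74e-04) and -0.56 ± 0.12 (adjusted p = 0.00127). Eci2, an enoyl-CoA isomerase, was at 158, 154, 309 and 257 CPM in WT chow, 117, 80.7 and 94.6 in WT CDAHFD, 73.5 and 67.3 in KO chow and 41.5, 48.7 and 57.4 in KO CDAHFD. Within WT chow Eci2 was higher in the 2 libraries with high evening clock genes, yet all libraries of the other groups lay below all 4. Ppara and other members, such as Abcd3 and Pex26, were also higher in those 2 libraries, and others, such as Pxmp4 and Far1, were lower. The part of clock phase in these values was not tested. Eci2 fell by 3.12-fold in KO chow, -1.64 ± 0.28 (adjusted p = 5.80e-04), and by 2.25-fold in WT CDAHFD, -1.17 ± 0.24 (adjusted p = 0.00124).

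Pecr, an enoyl-CoA reductase that acts in chain elongation and phytol breakdown, was at 249, 349.7, 306 and 300.3 CPM in WT chow, 98.4, 90.1 and 116 in WT CDAHFD, 119 and 124 in KO chow and 108, 137 and 97.1 in KO CDAHFD. It fell by -1.31 ± 0.17 (adjusted p = 8.32e-05) in KO chow and -1.57 ± 0.15 (adjusted p = 3.22e-06) in WT CDAHFD, and KO CDAHFD overlapped with both other changed groups, while KO chow lay above WT CDAHFD. Amacr, the racemase that turns branched acyl-CoA into the form the oxidases accept, was at 249, 217, 282 and 236 CPM in WT chow, 128, 114 and 128 in WT CDAHFD, 164 and 144 in KO chow and 125, 131 and 121 in KO CDAHFD. Its changes were -0.67 ± 0.12 (adjusted p = 0.00103) and -1.0 ± 0.11 (adjusted p = 9.43e-06). Scp2, whose gene encodes a branched-chain thiolase and sterol carrier protein, was the most abundant member per exon length in WT chow, with 2130 CPM per kb, and was at 7233, 7448, 6683 and 8289 CPM in WT chow, 3351, 3372 and 3264 in WT CDAHFD, 4625 and 3882 in KO chow and 2711, 3041 and 2330 in KO CDAHFD. The decrease was -0.80 ± 0.15 (adjusted p = 0.00114) in KO chow and -1.16 ± 0.13 (adjusted p = 1.37e-05) in WT CDAHFD, and no 2 groups overlapped. A pseudogene, Scp2-ps2, contains 21.8% of the 100-base windows of Scp2, so reads could be split between them.

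Acaa1a, a thiolase that closes the cycle, was at 223, 249, 340.0 and 289 CPM in WT chow, 214, 173 and 191 in WT CDAHFD, 156 and 145 in KO chow and 189.8, 174 and 216 in KO CDAHFD. It fell by -0.87 ± 0.17 (adjusted p = 0.00136) in KO chow and by -0.51 ± 0.14 (adjusted p = 0.0102) in WT CDAHFD, the latter call being lost without WT CDAHFD replicate 2. KO chow was below all other groups, and both CDAHFD groups overlapped. Its near copy Acaa1b, with which it shares 7.21% of its 100-base windows, gave -0.27 (adjusted p = 0.506) and -0.52 (adjusted p = 0.114), and a single WT chow library stood at 1369 CPM while the other 3 were between 637 and 760.2. Acox3, an oxidase for branched chains, differed between the arms. It was at 46.9, 42.4, 45.9 and 56.2 CPM in WT chow, 48.2, 38.4 and 45.4 in WT CDAHFD, 23.2 and 28.7 in KO chow and 40.5, 35.8 and 40.5 in KO CDAHFD. Both KO chow libraries were below all 10 others, with -0.88 ± 0.15 (adjusted p = 4.64e-04) in KO chow and -0.12 ± 0.12 (adjusted p = 0.447) in WT CDAHFD. Acox2, the oxidase for bile acid intermediates, gave -0.38 (adjusted p = 0.102) in KO chow and -0.48 (adjusted p = 0.0174) in WT CDAHFD, again lost without WT CDAHFD replicate 2.

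Ehhadh, the L-bifunctional enzyme of the classical straight-chain pathway, was not called in either single arm. It was at 326, 261, 324 and 228 CPM in WT chow, 323, 316 and 278 in WT CDAHFD, 290.4 and 298 in KO chow and 169.6, 168 and 202 in KO CDAHFD. KO chow and WT CDAHFD lay inside the range of WT chow, while the 3 KO CDAHFD libraries lay below all 9 others. The difference from WT chow was 0.05 (adjusted p = 0.828) in KO chow, with a 95% interval of -0.28 to 0.38, and 0.10 (adjusted p = 0.546) in WT CDAHFD, with an interval of -0.19 to 0.40. Crot, a carnitine octanoyltransferase that exports shortened chains to mitochondria, had a similar layout. It was at 1285, 1358, 1371 and 1006 CPM in WT chow, 1401, 1248 and 1244 in WT CDAHFD, 1203 and 1272 in KO chow and 936, 957 and 628 in KO CDAHFD. All 3 KO CDAHFD libraries were below the other 9, but no comparison of Crot was called. The intervals were -0.41 to 0.37 in KO chow and -0.29 to 0.39 in WT CDAHFD. Crat, a carnitine acetyltransferase shared with mitochondria, gave 0.39 (adjusted p = 0.214) and 0.0 (adjusted p = 0.999).

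**Figure D2:**
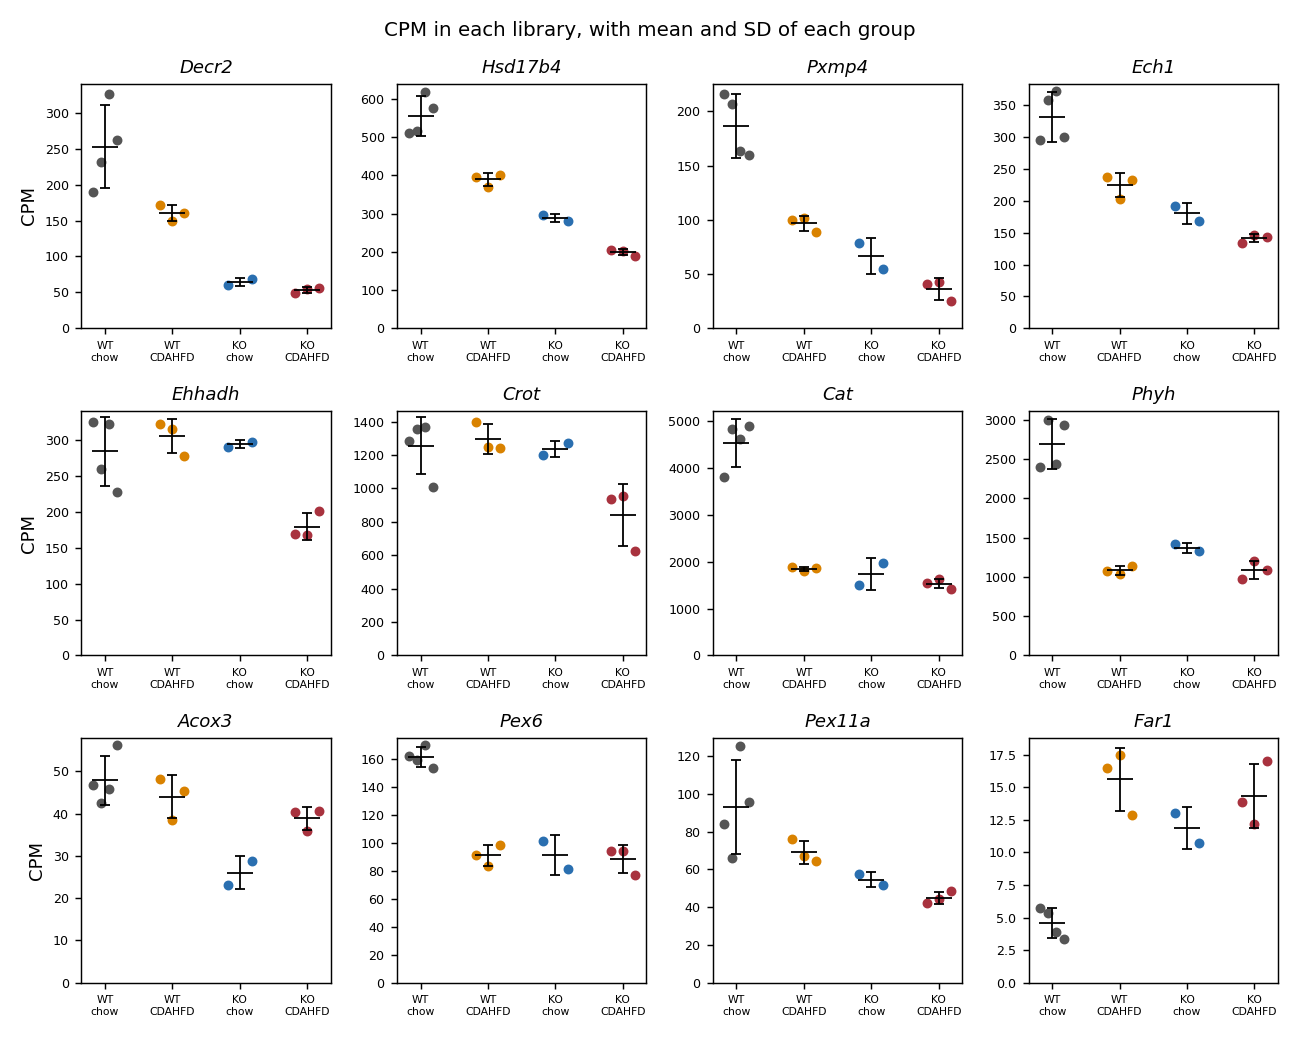
CPM on the vertical axis in each of the 12 libraries for 12 members, with a point for each library and a line with bars for the mean and SD of its group. Decr2, Hsd17b4, Pxmp4 and Ech1 step down over the groups without overlap, Ehhadh and Crot are low in KO CDAHFD alone, and Far1 is higher in the 3 other groups than in WT chow.

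The alpha-oxidation enzymes and the oxidases included large decreases in both arms. Phyh, which hydroxylates phytanoyl-CoA, was at 2401, 3002, 2435 and 2940 CPM in WT chow, 1079, 1033 and 1145 in WT CDAHFD, 1419 and 1328 in KO chow and 980.2, 1201 and 1091 in KO CDAHFD. Hacl1, the lyase of the next step, was at 42.8, 55.1, 45.2 and 41.0 CPM in WT chow, 13.1, 10.1 and 12.1 in WT CDAHFD, 26.2 and 15.3 in KO chow and 8.92, 13.7 and 5.52 in KO CDAHFD. In both genes every library of the other groups was below every WT chow library. Phyh fell by -0.97 ± 0.14 (adjusted p = 1.86e-04) in KO chow and -1.31 ± 0.13 (adjusted p = 2.96e-06) in WT CDAHFD. Hacl1 fell by -1.15 ± 0.30 (adjusted p = 0.00943) and -1.97 ± 0.27 (adjusted p = 6.21e-05), the latter the largest decrease of any member there, and its call in KO chow was lost without KO chow replicate 2. Hacl1 overlaps Btd over 2.18% of its exon bases on the opposite strand, and the libraries were not strand-specific. It also shares 31.14% of its exon bases and 23.9% of its 100-base windows with Gm49387 on the same strand, which had 0 counts. Reads of these bases may be missing from the count of Hacl1, which was not tested.

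Catalase, encoded by Cat, removes hydrogen peroxide, and its transcript was at 3801, 4837, 4610 and 4893 CPM in WT chow, 1880, 1793 and 1859 in WT CDAHFD, 1498 and 1972 in KO chow and 1551, 1629 and 1427 in KO CDAHFD. It was 2.61-fold lower in KO chow and 2.46-fold lower in WT CDAHFD, with -1.39 ± 0.16 (adjusted p = 2.31e-05) and -1.30 ± 0.14 (adjusted p = 5.78e-06). Hao1, the glycolate oxidase of hepatocytes, was at 493, 488, 418 and 546 CPM in WT chow, 148, 139 and 151 in WT CDAHFD, 191 and 148 in KO chow and 106, 120.0 and 79.8 in KO CDAHFD. Its decreases were -1.52 ± 0.18 (adjusted p = 2.80e-05) and -1.73 ± 0.15 (adjusted p = 1.45e-06). Pipox, an oxidase of pipecolic acid and sarcosine, was at 282, 382, 404 and 409 CPM in WT chow, 93.0, 79.8 and 117 in WT CDAHFD, 153 and 196 in KO chow and 127, 139 and 118 in KO CDAHFD. The groups did not overlap and fell in the order WT chow, KO chow, KO CDAHFD and WT CDAHFD, and the decreases were -1.08 ± 0.19 (adjusted p = 7.04e-04) in KO chow and -1.93 ± 0.17 (adjusted p = 1.44e-06) in WT CDAHFD. Hao2, a hydroxyacid oxidase best known from kidney, was near the limit of detection at 0.19, 0.16, 0.20 and 0.18 CPM in WT chow, 0.20, 0.078 and 0.31 in WT CDAHFD, 0.33 and 1.09 in KO chow and 0.63, 0.83 and 0.55 in KO CDAHFD. Both KO groups were above all WT libraries. The rise in KO chow was 1.94 ± 0.55 (adjusted p = 0.0133), but it was 0.82 with an adjusted p of 0.369 without KO chow replicate 2, and WT CDAHFD gave 0.08 (adjusted p = 0.915).

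Of the ether lipid enzymes, Far1 and Agps rose while Gnpat did not. Far1 makes the fatty alcohol and was at 5.71, 5.35, 3.90 and 3.35 CPM in WT chow, 16.5, 17.5 and 12.9 in WT CDAHFD, 13.03 and 10.7 in KO chow and 13.8, 12.2 and 17.0 in KO CDAHFD. Agps inserts that alcohol and was at 24.5, 19.1, 20.8 and 21.5 CPM in WT chow, 31.4, 36.7 and 30.7 in WT CDAHFD, 29.6 and 29.4 in KO chow and 31.4, 25.1 and 32.2 in KO CDAHFD. Every library of the other 3 groups was above every WT chow library for both genes. Far1 rose by 1.37 ± 0.22 (adjusted p = 3.02e-04) in KO chow and 1.77 ± 0.20 (adjusted p = 1.03e-05) in WT CDAHFD, and Agps rose by 0.46 ± 0.13 (adjusted p = 0.0166) and 0.62 ± 0.12 (adjusted p = 8.78e-04). The Agps call in KO chow was lost without either KO chow library, at adjusted p up to 0.0836. Gnpat, which starts the pathway on dihydroxyacetone phosphate, gave -0.30 (adjusted p = 0.0551) in KO chow and was lower in WT CDAHFD by -0.38 ± 0.10 (adjusted p = 0.00815).

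Among the membrane proteins, Abcd3, the abundant transporter that carries acyl-CoA into the organelle, was at 621, 664, 1099 and 896 CPM in WT chow, 370.5, 352 and 372 in WT CDAHFD, 343 and 360.1 in KO chow and 260.3, 260.5 and 290.2 in KO CDAHFD. It fell by -1.22 ± 0.20 (adjusted p = 4.30e-04) in KO chow and -1.17 ± 0.17 (adjusted p = 1.17e-04) in WT CDAHFD. Abcd2, a related transporter of very long chains, moved the other way and was at 3.81, 5.54, 9.77 and 3.03 CPM in WT chow, 28.3, 20.8 and 27.5 in WT CDAHFD, 17.2 and 52.3 in KO chow and 11.98, 11.9 and 25.9 in KO CDAHFD. The rise was 2.64 ± 0.47 (adjusted p = 7.32e-04) in KO chow and 2.19 ± 0.43 (adjusted p = 0.00106) in WT CDAHFD, and the KO chow value ranged from 1.62 without replicate 2 to 3.24 without replicate 1. Per exon length Abcd2 rose from 0.931 to 5.84 CPM per kb in KO chow, while Abcd3 went from 124 to 53.3. Abcd4, which is known mainly as a lysosomal cobalamin transporter, gave -0.38 (adjusted p = 0.0415) in KO chow and -0.13 (adjusted p = 0.369) in WT CDAHFD, and the first call was lost when any of 9 libraries (WT chow 1, 2 and 4, WT CDAHFD 1, 2 and 3, KO chow 1 and 2, KO CDAHFD 1) was left out.

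Pxmp4, a membrane protein of little known function, was at 216, 207, 163 and 159.7 CPM in WT chow, 100.2, 101 and 89.2 in WT CDAHFD, 78.5 and 54.7 in KO chow and 41.3, 42.6 and 25.1 in KO CDAHFD. The 4 groups did not overlap. It fell by -1.49 ± 0.23 (adjusted p = 2.65e-04) in KO chow and -0.94 ± 0.19 (adjusted p = 0.00134) in WT CDAHFD. Pxmp2, a pore of the membrane, was at 58.9, 124, 89.8 and 89.9 CPM in WT chow, 38.4, 33.7 and 44.2 in WT CDAHFD, 44.1 and 49.9 in KO chow and 46.2, 53.8 and 41.0 in KO CDAHFD. Slc25a17, the carrier of coenzyme A and related cofactors, was at 96.0, 102, 75.2 and 87.1 CPM in WT chow, 53.4, 58.1 and 50.2 in WT CDAHFD, 51.4 and 49.9 in KO chow and 48.8, 51.5 and 41.5 in KO CDAHFD. For both, all libraries of the other groups were below all WT chow libraries and overlapped with each other. The changes of Pxmp2 were -0.95 (adjusted p = 0.00663), a call lost without KO chow replicate 1, and -1.23 (adjusted p = 3.02e-04), and those of Slc25a17 were -0.83 (adjusted p = 4.74e-04) and -0.74 (adjusted p = 2.34e-04).

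**Figure D3:**
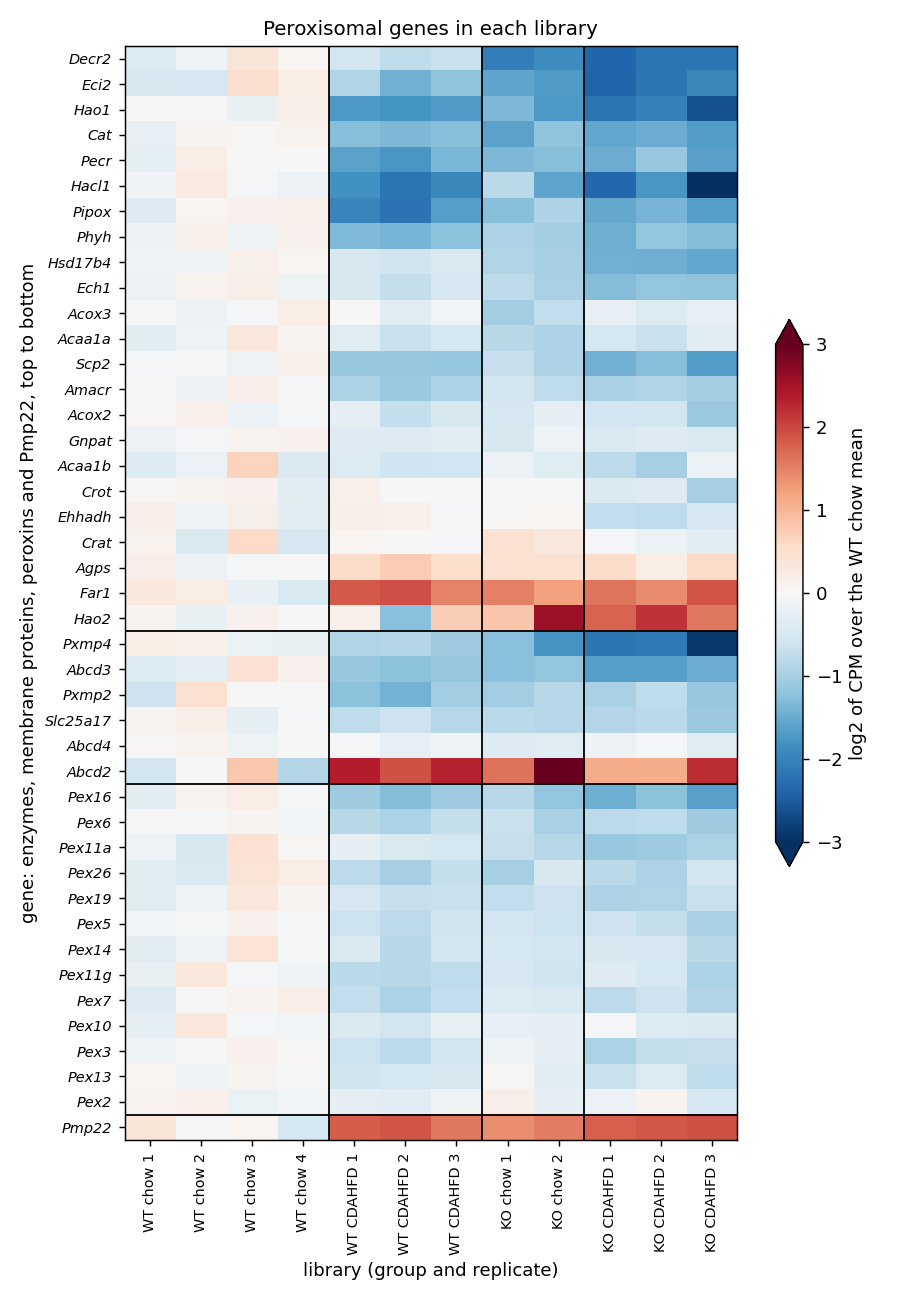
Each row is a member and each column a library, coloured by the log2 of its CPM over the WT chow mean, with lines between the classes and between the groups. Hacl1, Pxmp4 and Hao1 hold the lowest cells, most peroxin cells are a paler blue in the groups other than WT chow, and Far1, Agps, Abcd2 and Pmp22 are red in those groups under TMM scaling.

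The 13 peroxins spread over a narrower range of fold changes than the 23 enzymes in both comparisons with WT chow. Their largest decrease was that of Pex16, which inserts membrane proteins, at 67.5, 92.9, 101 and 82.2 CPM in WT chow, 41.3, 34.9 and 40.8 in WT CDAHFD, 48.3 and 37.9 in KO chow and 31.2, 36.8 and 27.8 in KO CDAHFD. Pex6, the ATPase that recycles the import receptor, was at 162, 159, 170.1 and 153 CPM in WT chow, 91.1, 83.5 and 98.4 in WT CDAHFD, 101 and 81.4 in KO chow and 94.0, 94.2 and 76.6 in KO CDAHFD. Pex26, its membrane anchor, was at 29.8, 27.3, 48.6 and 43.9 CPM in WT chow, 21.6, 18.9 and 22.8 in WT CDAHFD, 18.7 and 26.6 in KO chow and 21.4, 19.6 and 25.5 in KO CDAHFD. In these genes every library of the other groups lay below every WT chow library. Pex16 fell by -1.0 ± 0.18 (adjusted p = 7.40e-04) in KO chow and -1.14 ± 0.15 (adjusted p = 5.33e-05) in WT CDAHFD, and Pex6 by -0.82 ± 0.13 (adjusted p = 3.53e-04) and -0.82 ± 0.11 (adjusted p = 6.63e-05). For Pex26 the values were -0.72 ± 0.23 (adjusted p = 0.0273) and -0.83 ± 0.20 (adjusted p = 0.00458), and the KO chow call was lost without KO chow replicate 1 or without WT chow replicate 3 or 4.

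The import receptors fell as well. Pex5, the receptor for the C-terminal targeting signal, was at 179, 185, 207 and 185 CPM in WT chow, 120.1, 110.1 and 126 in WT CDAHFD, 127 and 121 in KO chow and 122, 115 and 96.7 in KO CDAHFD. Pex7, the receptor for the N-terminal signal, was at 77.5, 101, 107 and 116 CPM in WT chow, 60.2, 51.7 and 60.5 in WT CDAHFD, 75.3 and 73.4 in KO chow and 58.4, 65.8 and 53.8 in KO CDAHFD. Pex5 changed by -0.61 ± 0.12 (adjusted p = 0.00164) and -0.67 ± 0.11 (adjusted p = 1.84e-04). Pex7 changed by -0.44 ± 0.15 (adjusted p = 0.0384) in KO chow, a call lost when any of 8 libraries (WT chow 2, 3 and 4, WT CDAHFD 1 and 3, KO chow 1 and 2, KO CDAHFD 1) was left out, and by -0.81 ± 0.14 (adjusted p = 3.02e-04) in WT CDAHFD. Of the docking proteins, Pex14 gave -0.56 (adjusted p = 0.0353), which was lost without either KO chow library or WT chow replicate 3, and -0.61 (adjusted p = 0.00932), lost without WT CDAHFD replicate 2, while Pex13 gave -0.13 (adjusted p = 0.469) and -0.53 (adjusted p = 0.00219). The RING ligases that mark the receptor for recycling were not called in either arm, with -0.05 (adjusted p = 0.856) and -0.23 (adjusted p = 0.238) for Pex2 and -0.27 (adjusted p = 0.299) and -0.40 (adjusted p = 0.0736) for Pex10.

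Pex3, the membrane anchor that receives new membrane proteins, was at 26.3, 29.1, 32.3 and 30.1 CPM in WT chow, 18.9, 17.0 and 19.6 in WT CDAHFD, 26.4 and 24.1 in KO chow and 15.2, 18.0 and 18.1 in KO CDAHFD. KO chow overlapped with WT chow, and both CDAHFD groups lay below. Its change was -0.22 ± 0.12 (adjusted p = 0.175) in KO chow and -0.67 ± 0.11 (adjusted p = 2.43e-04) in WT CDAHFD. Pex19, the shuttle that brings those proteins to Pex3, gave -0.68 (adjusted p = 0.00708), lost without KO chow replicate 1, and -0.62 (adjusted p = 0.00357). Of the division factors, Pex11a, the member of its family known to respond to PPARα ligands, was at 84.0, 66.2, 125 and 95.7 CPM in WT chow, 75.9, 67.1 and 64.3 in WT CDAHFD, 57.4 and 51.7 in KO chow and 42.1, 44.1 and 48.4 in KO CDAHFD. It was below WT chow in both KO groups, with -0.77 ± 0.20 (adjusted p = 0.00876) in KO chow, lost without KO chow replicate 2, and -0.43 ± 0.17 (adjusted p = 0.0545) in WT CDAHFD, which overlapped with WT chow. Pex11g was at 27.3, 40.2, 31.3 and 29.5 CPM in WT chow, 18.2, 18.0 and 19.0 in WT CDAHFD, 22.8 and 21.3 in KO chow and 24.6, 22.2 and 16.6 in KO CDAHFD. Its changes were -0.54 (adjusted p = 0.0262), lost without either KO chow library, and -0.80 (adjusted p = 8.16e-04).

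Pmp22, the myelin protein, was at 5.47, 4.16, 4.47 and 2.94 CPM in WT chow, 15.1, 15.7 and 12.8 in WT CDAHFD, 11.2 and 12.4 in KO chow and 14.8, 15.5 and 15.9 in KO CDAHFD. It rose by 1.47 ± 0.19 (adjusted p = 5.63e-05) in KO chow and 1.77 ± 0.17 (adjusted p = 2.97e-06) in WT CDAHFD. Of 5 Schwann cell markers 3 were tested, and 1 was higher in each of these comparisons. The summed CPM of the markers was 1.93 to 4.35 in WT chow and 5.65 to 12.7 in the other libraries, and its part in the Pmp22 values was not tested.

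The third comparison asked whether hepatocyte PPARα still made a difference once mice were fed CDAHFD. In KO CDAHFD 5 members were called lower than in WT CDAHFD and none higher, namely Decr2, Pxmp4, Hsd17b4, Ehhadh and Ech1. The 5 make up 11.6% of the members, against 0.271% of all tested genes lower and 0.0864% higher. With DESeq2 7 members were lower and 0 higher, while 250 of all genes were called, 47.2% of them higher. In the edgeR test 13 members had an unadjusted p under 0.05, as did 1523 of the 17358 genes tested. None of the 13 peroxins was called by the edgeR test, with 1 at an unadjusted p under 0.05. The fold changes were -1.58 ± 0.17 (adjusted p = 9.30e-04) for Decr2, -1.42 ± 0.21 (adjusted p = 0.00909) for Pxmp4, -0.97 ± 0.11 (adjusted p = 0.0012) for Hsd17b4, -0.77 ± 0.14 (adjusted p = 0.0467) for Ehhadh and -0.66 ± 0.12 (adjusted p = 0.0425) for Ech1. The class medians were -0.18 for enzymes, -0.31 for membrane proteins and -0.04 for peroxins. Decr2 and Hsd17b4 kept their calls in all 20 alternatives and Pxmp4 in 19, losing it without WT CDAHFD replicate 1 at an adjusted p of 0.0514. Ech1 kept its call in 11 alternatives and lost it when any library of either CDAHFD group was left out, and Ehhadh kept its call in 6 of 20, with adjusted p up to 0.251. Eci2, with -0.98 ± 0.25 (adjusted p = 0.168), and Pex11a, with -0.62 ± 0.18 (adjusted p = 0.282), were called only under alternatives, among them the clock gene score as a covariate, with adjusted p of 0.00637 and 0.0436. The median of the 8 hepatocyte markers between these groups was 0.06, and 1 of 8 had an unadjusted p under 0.05.

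**Figure D4:**
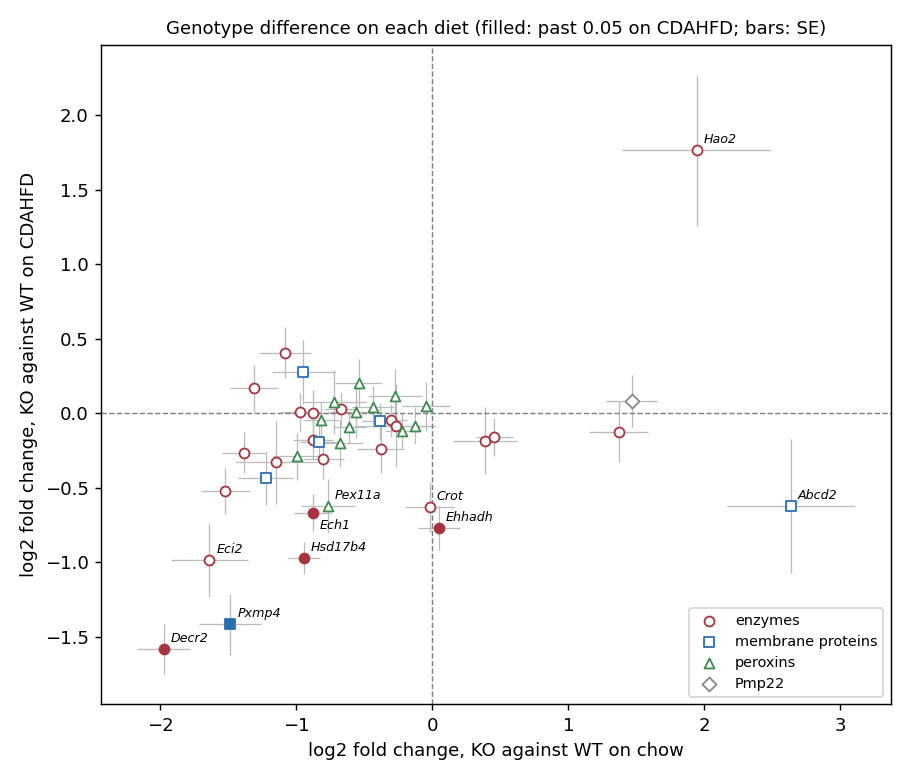
Log2 fold change of KO against WT on chow (horizontal axis) and on CDAHFD (vertical axis) for each member, with bars for the standard error and filled symbols for an adjusted p under 0.05 on CDAHFD. Decr2, Pxmp4, Hsd17b4 and Ech1 lie low on both axes, Ehhadh is low on the vertical axis alone, and the 13 peroxins lie left of 0 on chow but between -0.62 and 0.20 on CDAHFD.

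In KO mice, CDAHFD against chow gave 7 members lower and 1 higher, against 2.44% and 3.76% of all tested genes. The decreases were -1.15 (adjusted p = 0.0452) for Hacl1, -0.87 (adjusted p = 0.0395) for Pxmp4, -0.73 (adjusted p = 0.0287) for Hao1, -0.71 (adjusted p = 0.0228) for Ehhadh, -0.66 (adjusted p = 0.0266) for Scp2, -0.56 (adjusted p = 0.0243) for Pex3 and -0.54 (adjusted p = 0.0207) for Hsd17b4. Acox3 rose by 0.58 ± 0.15 (adjusted p = 0.0419). Every one of these 8 calls was lost when either KO chow library or KO CDAHFD replicate 1 was left out. No decrease of a member was called under the hepatocyte marker scaling, where 98% of 4003 calls over all genes were higher. KO chow libraries lay above KO CDAHFD libraries without overlap in 21 members and below in 4, against 19.2% and 19.9% of all tested genes.

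KO chow against WT CDAHFD set the single changes side by side. Decr2 was lower in KO chow by -1.32 ± 0.19 (adjusted p = 0.00216) and Acox3 by -0.76 ± 0.15 (adjusted p = 0.0135), while Pipox was higher by 0.85 ± 0.19 (adjusted p = 0.0218). These 2 lower and 1 higher members compare with 3.42% and 2.71% of all tested genes. Scaled to the hepatocyte markers, 23 members were lower and 0 higher. Over all 17358 genes 7365 were then called, 1.62% of them higher, and the median moved to -0.609. The Acox3 call was lost without KO chow replicate 1 or WT CDAHFD replicate 1, and the Pipox call without KO chow replicate 2 or WT CDAHFD replicate 1 or 2. None of the peroxins was called by edgeR, and their median difference was 0.12. An unadjusted p under 0.05 was found for 3 of them and for 4168 of the 17358 genes tested. DESeq2 called Pex3 higher, with an adjusted p of 0.0268. Hsd17b4 gave -0.43 ± 0.12 (adjusted p = 0.0528), which missed the threshold, and it was called in 11 of 20 alternatives.

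The interaction asked whether the diet effect in KO mice differed from that in WT mice. It was called positive for 15 members and called negative for 5, against 8.63% and 14.5% of all tested genes. The 15 comprised 8 enzymes, 3 membrane proteins and 4 peroxins. A positive value stands for a diet effect that was higher in KO than in WT mice. Of the 15, all but Acox3 had been called lower in WT CDAHFD, while Acox3 was called higher with the diet in KO mice. Pipox and Pecr had the largest, 1.49 ± 0.26 (adjusted p = 0.00111) and 1.48 ± 0.23 (adjusted p = 5.70e-04). They were followed by Pxmp2, Cat, Hao1 and Phyh with 1.22 (adjusted p = 0.014), 1.12 (adjusted p = 0.00175), 1.0 (adjusted p = 0.00723) and 0.98 (adjusted p = 0.00268). In Pecr the diet changed WT livers by -1.57 and KO livers by -0.09, and in Cat by -1.30 and -0.18. Acaa1a, Abcd3, Amacr, Acox3 and Slc25a17 gave 0.88, 0.79, 0.70, 0.70 and 0.64. The peroxins Pex6, Pex11g, Pex16 and Pex5 gave 0.77 (adjusted p = 0.00698), 0.74 (adjusted p = 0.0387), 0.71 (adjusted p = 0.0463) and 0.52 (adjusted p = 0.0368).

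Of the negative interactions, Abcd2, Far1, Pmp22 and Agps had risen in both single arms and gave -3.26 (adjusted p = 0.00318), -1.49 (adjusted p = 0.0031), -1.38 (adjusted p = 0.00195) and -0.61 (adjusted p = 0.0305). Ehhadh, with -0.82 ± 0.21 (adjusted p = 0.0133), was the only member with a called negative interaction and no call in either single arm. Decr2, Hsd17b4, Pxmp4 and Ech1, which were lower in KO mice on both diets, gave 0.39 (adjusted p = 0.275), -0.03 (adjusted p = 0.928), 0.07 (adjusted p = 0.9) and 0.22 (adjusted p = 0.43). Leaving out KO chow replicate 1 or 2 reduced the positive calls from 15 to 9 and 8, and leaving out KO CDAHFD replicate 1 also left 9. Calls of Abcd2, Pecr, Pipox, Ehhadh, Far1 and Pmp22 held in all 19 alternatives, and those of Abcd3 and Pex16 in 7. Under library totals alone there were 6 positive calls, and under the hepatocyte marker scaling 2 positive and 9 negative. Over all genes these scalings gave 4944 and 6750 calls, of which 13.7% and 5.64% were positive.

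Promoter sequence was read for the members that set the patterns apart. Shown are Decr2, lower in KO mice on both diets, Ehhadh, low only with both changes, Cat, lower in both single arms, and the peroxin Pex11a. Each run is the 300 bases from 250 before to 50 after the RefSeq start site in GRCm38.p6, on the minus strand in all 4, with the core motif AGGTCA or its reverse complement TGACCT in capitals.
Decr2, chr17:26090115-26090414: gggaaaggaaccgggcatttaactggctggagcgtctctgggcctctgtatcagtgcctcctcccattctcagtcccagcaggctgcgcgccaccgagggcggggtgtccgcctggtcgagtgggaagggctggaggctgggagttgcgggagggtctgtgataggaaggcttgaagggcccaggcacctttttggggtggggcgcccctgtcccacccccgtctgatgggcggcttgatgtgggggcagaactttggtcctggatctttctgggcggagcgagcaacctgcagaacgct
Ehhadh, chr16:21787785-21788084: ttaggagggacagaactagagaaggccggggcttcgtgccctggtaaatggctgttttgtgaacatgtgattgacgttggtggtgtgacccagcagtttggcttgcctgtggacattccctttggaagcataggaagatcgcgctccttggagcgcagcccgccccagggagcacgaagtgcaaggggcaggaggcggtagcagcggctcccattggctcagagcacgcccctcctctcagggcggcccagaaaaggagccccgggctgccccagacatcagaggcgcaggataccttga
Cat, chr2:103485104-103485403: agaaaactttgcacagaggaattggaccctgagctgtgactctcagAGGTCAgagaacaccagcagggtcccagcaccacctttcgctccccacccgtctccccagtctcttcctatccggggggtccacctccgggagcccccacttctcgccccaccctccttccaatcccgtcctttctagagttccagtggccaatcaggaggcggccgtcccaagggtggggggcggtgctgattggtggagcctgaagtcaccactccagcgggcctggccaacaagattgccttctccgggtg
Pex11a, chr7:79743082-79743381: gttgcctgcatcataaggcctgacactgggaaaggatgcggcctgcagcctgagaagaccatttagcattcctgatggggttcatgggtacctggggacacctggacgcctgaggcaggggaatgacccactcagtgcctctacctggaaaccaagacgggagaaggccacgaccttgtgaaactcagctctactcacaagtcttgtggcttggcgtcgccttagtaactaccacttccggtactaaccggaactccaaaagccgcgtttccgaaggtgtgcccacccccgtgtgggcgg

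The motif occurs 1 time in the Cat window, beginning 204 bases before the start site, and in none of the 3 others. RefSeq promoters were given for 35 of the 43 members. The motif stood in 4 of them, those of Cat, Pex11g, Phyh and Scp2, which is 11.4% against 16.3% of all 32851 promoters of the same length. A direct repeat of AGGTCA with 1 base between the copies, searched on both strands, was in 0 of 35 member promoters exactly or with 1 mismatch, against 0.0396% and 0.554% of all promoters. A longer or more distant window was not searched.

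Other peroxisomal genes, from a separate list of 37 of which 36 were tested, were described by the same counts. In KO chow 23 were lower and 3 higher than in WT chow, against 17% and 22% of all tested genes. In WT CDAHFD 28 were lower and 0 higher, against 25% and 26.1% of all tested genes. The medians of the list were -0.53 and -0.70, beside 0.00 and -0.05 for all genes. In KO CDAHFD against WT CDAHFD 2 were lower, against 0.271% of all tested genes. An unadjusted p under 0.05 by the edgeR test was found for 15 of the list and for 1523 of the 17358 genes tested. The 2 lower genes were Hsdl2, with -0.94 ± 0.15 (adjusted p = 0.0158), and Dhrs4, with -0.59 ± 0.11 (adjusted p = 0.0459). Nudt7, which hydrolyses coenzyme A inside the organelle, fell by -1.85 ± 0.25 (adjusted p = 8.05e-05) in KO chow and -2.85 ± 0.22 (adjusted p = 4.76e-07) in WT CDAHFD. Mpv17l fell by -1.39 (adjusted p = 5.32e-05) and -2.21 (adjusted p = 2.42e-07), Ephx2, the soluble epoxide hydrolase, by -1.66 (adjusted p = 2.06e-06) and -1.42 (adjusted p = 8.25e-07), and Uox, urate oxidase, gave -0.53 (adjusted p = 0.173) and -1.89 (adjusted p = 7.87e-05).

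Acot3, a peroxisomal thioesterase, moved in opposite directions in the single arms. It was at 0.54, 1.29, 3.87 and 0.78 CPM in WT chow, 0.39, 0.33 and 0.61 in WT CDAHFD, 9.36 and 12.8 in KO chow and 2.47, 2.03 and 4.14 in KO CDAHFD. KO chow was above all other libraries, by 2.74 ± 0.54 (adjusted p = 0.0015) against WT chow, and WT CDAHFD was lower by -1.90 ± 0.59 (adjusted p = 0.017), although its replicate 3 overlapped with WT chow replicate 1. The gene had 14 to 527 counts in a library and overlaps an antisense gene, 4732463B04Rik, over 9.08% of its exon bases.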

How the data were processed

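The authors deposited 1 table of raw counts per gene for 12 liver RNA libraries. By the paper's methods, poly-T beads selected the messenger RNA out of total RNA. The libraries were made with a kit that does not keep strand. The submitters' processing notes name STAR 2.7.3a, FastQC 0.11.5, DESeq2 and GRCm38. The counting program and the annotation release are not given in the sources used here. Library totals ran from 29906785 to 43551003 counts. Gene names were taken from GENCODE M21, which matched 94.1% of the identifiers and 99.7% of the counts. All 12 columns were used, and the column headers write HFD where the sample descriptions write CDAHFD.

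Counts were fitted with edgeR 4.0.16 (limma 3.58.1, R 4.3.3) by the quasi-likelihood test with 1 mean per group. All 12 libraries shared the estimate of spread, because KO chow had only 2. Scaling was by TMM, low genes were removed with filterByExpr, and p-values were adjusted by Benjamini-Hochberg over 17358 genes with a threshold of 0.05. Fold changes are on the log2 scale with their standard errors. CPM carry the TMM factors. The procedure was tested on simulated data. Alternatives used DESeq2 1.42.0, other scalings and filters, a replicate block, a clock gene score as covariate and leaving out each library. The study's methods describe the same number of mice in every group, whereas the libraries number 4, 3, 2 and 3. The labels do not say which libraries came from separate mice, so p-values measure the spread between these libraries, which may in part be technical.

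The members and gene lists were chosen with earlier results of these data known. Every member was named. Values in each library were to be given for the 8 largest decreases and 4 largest increases called against WT chow in each arm, for members called in any other comparison, for the 4 peroxins with the largest change in each arm, and, from the other peroxisomal genes, for the 4 with the largest called change in each arm, some of which are given by fold change only. One gene of that list is not reported here. Promoters were read from RefSeq on GRCm38.p6. Figures were drawn with matplotlib 3.10.9.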

Additional observations from a re-analysis of the deposited data

Results flagged for a closer look

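In Acaa1b, WT chow replicate 3 stood at 1369 CPM, apart from the other 3 libraries of its group by the Dixon criterion, which marks about 1 in 20 groups by chance.

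For 20 members the diet effect in KO mice differed from that in WT mice by the interaction test of edgeR at an adjusted p under 0.05. The log2 difference, KO minus WT, was positive for 15 of them. Among enzymes it was 1.49 for Pipox, 1.48 for Pecr, 1.12 for Cat, 1.0 for Hao1, 0.979 for Phyh, 0.877 for Acaa1a, 0.704 for Amacr and 0.702 for Acox3. Among membrane proteins it was 1.22 for Pxmp2, 0.79 for Abcd3 and 0.642 for Slc25a17. Among peroxins it was 0.773 for Pex6, 0.743 for Pex11g, 0.707 for Pex16 and 0.518 for Pex5. It was negative for Abcd2 at -3.26, Far1 at -1.49, Pmp22 at -1.38, Ehhadh at -0.817 and Agps at -0.613. The KO arm of each of these differences rests on the same 2 KO chow libraries.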

How the results depend on the processing

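KO chow held 2 libraries, and leaving out replicate 1 or 2 of that group lost 25 and 26 member calls, more than leaving out any other library, where 1 to 18 were lost. Over the alternatives of the member results that were called, 1728 values kept direction and side of the threshold, 264 no longer passed it and 28 turned. The causes were not tested. Depth was lowest for Hao2, with 4 to 45 counts in a library, whereas all other members had 64 or more.

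With DESeq2, without the filter on low counts and with only the groups compared in the fit, KO chow against WT CDAHFD gave 3 members higher, and the last of these settings also gave 1 lower and 0 higher for KO CDAHFD against KO chow. The clock score as a covariate gave 4 lower and 3 higher for KO chow against WT CDAHFD and an enzyme median of 0.225 for the interaction. The replicate numbers of the titles did not pair the libraries, since the deviations of 15 same-numbered pairs correlated between -0.242 and 0.266 and 3 pairs exceeded 0.1. With the numbers as a replicate block, KO chow against WT chow gave 3 higher, KO CDAHFD against WT CDAHFD 3 lower, KO CDAHFD against KO chow 3 lower and 0 higher, and the enzyme median of the interaction was 0.26.

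Library totals as the only scaling moved the median of all genes to 0.404 for KO chow against WT chow, 0.51 for WT CDAHFD against WT chow, 0.202 in KO CDAHFD against KO chow, -0.152 in KO chow against WT CDAHFD and -0.34 in the interaction. Of all 43 members, called or not, 9 turned in KO chow and 11 in WT CDAHFD. KO chow against WT chow then gave 18 lower, with medians of -0.464 for enzymes and -0.154 for peroxins and 0.0204 for Abcd4. WT CDAHFD against WT chow gave 12 lower and 9 higher, medians of 0.0344 and -0.111, and 0.0696 for Acox2, 0.0485 for Hsd17b4, 0.0497 for Acaa1a, 0.188 for Gnpat and 0.0307 for Pex13. KO CDAHFD against WT CDAHFD gave 3 lower. KO CDAHFD against KO chow gave 2 lower and medians of -0.128 and 0.0613, KO chow against WT CDAHFD medians of -0.0845 and -0.0298, and the interaction 6 higher with medians of 0.0388 and 0.125.

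Scaling to hepatocyte markers, added after seeing the data, moved the median of all genes to 0.523, 1.09, -0.122, 0.481, -0.609 and -0.638 over the 6 comparisons in the order of the report. KO chow against WT chow gave 11 lower and 10 higher, medians of -0.339 for enzymes and -0.0307 for peroxins, 0.138 for Abcd4 and 0.0987 for Pex7. WT CDAHFD against WT chow gave 4 lower and 26 higher and medians of 0.612 and 0.466. Of 24 members that turned there, the 18 that had been called were Acox2 at 0.641, Hsd17b4 0.627, Acaa1a 0.629, Amacr 0.135, Decr2 0.484, Ech1 0.566, Gnpat 0.767, Pxmp4 0.179, Slc25a17 0.389, Pex3 0.466, Pex5 0.463, Pex6 0.309, Pex7 0.337, Pex11g 0.327, Pex13 0.609, Pex14 0.532, Pex19 0.521 and Pex26 0.325. KO CDAHFD against WT CDAHFD gave 3 lower with medians of -0.315 and -0.183, KO CDAHFD against KO chow 0 lower and 4 higher with 0.146 and 0.319, and KO chow against WT CDAHFD 23 lower and 0 higher with -0.545 and -0.486. The interaction gave 9 lower and 2 higher, medians of -0.258 and -0.165, -0.0189 for Slc25a17 and -0.144 for Pex5.

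Leaving out each library in turn gave 0 to 1 higher and 0 to 7 lower for KO CDAHFD against KO chow, 2 to 5 lower for KO CDAHFD against WT CDAHFD, 0 to 2 higher and 1 to 3 lower for KO chow against WT CDAHFD, 3 to 6 higher for KO chow against WT chow and 8 to 16 higher for the interaction. The enzyme median ranged from -0.0756 to 0.0892 for KO chow against WT CDAHFD and from 0.249 to 0.502 for the interaction.

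Over all genes, calls in KO CDAHFD against WT CDAHFD numbered 62, but 250 with DESeq2, 215 without the filter, 154 with only the groups compared and 167 with the clock score. In KO CDAHFD against KO chow there were 1075, but 1903 with DESeq2, 581 with only the groups compared, 640 with the block, 1648 with the clock score and 4003 scaled to hepatocyte markers. In KO chow against WT CDAHFD there were 1063, but 2074, 1985, 2433 and 7365 with DESeq2, only the groups compared, the clock score and the hepatocyte markers, and in WT CDAHFD against WT chow 8863 but 14063 with the markers. The interaction gave 4011, but 6750 with the markers. Leaving out 1 library gave as few as 26 in KO CDAHFD against WT CDAHFD, without WT CDAHFD replicate 1 or KO CDAHFD replicate 2, and, without KO chow replicate 1, 233 in KO CDAHFD against KO chow, 260 in KO chow against WT CDAHFD and 4320 instead of 6763 in KO chow against WT chow. Higher genes made up 56.4% of calls in KO chow against WT chow, 86% under library totals and 90.6% under the markers. These shares were 51%, 88.6% and 97.2% in WT CDAHFD against WT chow, 60.7%, 90% and 98% in KO CDAHFD against KO chow, 44.2%, 19.1% and 1.62% in KO chow against WT CDAHFD, and 37.3%, 13.7% and 5.64% in the interaction. In KO CDAHFD against WT CDAHFD they were 24.2%, 26% and 13.8%.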
